A study of Homo sapiens with 8 samples.

Results

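The 10 genes described here belong to the ATF4-CHOP arm of the stress response: the transcription factors ATF4, ATF3, ATF5, DDIT3 and CEBPB, and the stress-induced genes TRIB3, DDIT4, SESN2, CHAC1 and VLDLR. They were looked up by gene symbol among the non-control probes of 8 expression arrays, where they have 15 probes, and where a gene had several probes the one used was chosen by its mean level over the 8 arrays, the brightest being kept. All 10 were among the 20464 genes tested, and their probes were well above background on all 8 arrays.

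The arrays measured total RNA of HuCCT1, a human intrahepatic cholangiocarcinoma cell line, in which BEX2 had been knocked down with a short hairpin RNA. Each of 4 vectors was hybridised to 2 arrays. From the vector names in the sample titles, the shControl and shNontarget cells were taken as controls and the shBEX2-1 and shBEX2-2 cells as BEX2 knockdown. The cells were otherwise untreated as far as the labels state. The study made its knockdown sublines with retroviral vectors and describes a luciferase hairpin as control, without saying which of the control vectors this was. As printed in its methods, the BEX2 target sequences of the study are reverse complements of each other over nearly their whole length. Whether the hairpins on these arrays have these sequences, and so share a target site, was not tested. Nothing in the labels tells whether both arrays of a vector are separate cultures, and the p-values below measure only the spread between these arrays, which may be technical.

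ATF4 is a transcription factor whose protein is made more efficiently when eIF2 is phosphorylated by kinases that sense amino acid shortage, misfolded protein in the endoplasmic reticulum, viral RNA or lack of heme. It switches on genes for amino acid uptake and synthesis and for aminoacyl-tRNA synthetases, together with further transcription factors, among them CHOP, the protein of DDIT3. ATF4 and CHOP bind DNA as pairs with other bZIP proteins, often with members of the C/EBP family such as CEBPB, at composite sites known as CEBP-ATF response elements. Tumour cells use this arm to keep up protein synthesis when nutrients are scarce, and long activation of CHOP is known to favour cell death.

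Promoter sequences are shown for 5 of the genes, because DDIT3, SESN2 and TRIB3 fell in each comparison with control below while ATF3 and CHAC1 were the members that held a searched motif. The sequences are the 250 bases upstream of the most upstream start in the RefSeq promoter table (build GRCh38.p14), 5′ to 3′ on the strand of the gene, in lower case with the CEBP-ATF response element in capitals.
DDIT3, chr12:57520518-57520767, minus strand: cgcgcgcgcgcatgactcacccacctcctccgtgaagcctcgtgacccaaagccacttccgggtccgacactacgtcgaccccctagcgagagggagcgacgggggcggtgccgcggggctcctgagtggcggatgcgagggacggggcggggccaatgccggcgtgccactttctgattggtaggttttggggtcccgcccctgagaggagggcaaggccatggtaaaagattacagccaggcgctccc
SESN2, chr1:28259268-28259517, plus strand: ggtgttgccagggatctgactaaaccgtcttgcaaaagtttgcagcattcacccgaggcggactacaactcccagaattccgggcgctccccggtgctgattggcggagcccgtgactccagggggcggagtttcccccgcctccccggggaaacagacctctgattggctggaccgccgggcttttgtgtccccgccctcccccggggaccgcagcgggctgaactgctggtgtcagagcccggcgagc
TRIB3, chr20:381045-381294, plus strand: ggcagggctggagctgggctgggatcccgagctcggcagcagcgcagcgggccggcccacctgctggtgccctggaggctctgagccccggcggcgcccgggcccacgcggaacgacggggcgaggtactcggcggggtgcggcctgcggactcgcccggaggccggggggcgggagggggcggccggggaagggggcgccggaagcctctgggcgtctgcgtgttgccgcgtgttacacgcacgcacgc
ATF3, chr1:212565157-212565406, plus strand: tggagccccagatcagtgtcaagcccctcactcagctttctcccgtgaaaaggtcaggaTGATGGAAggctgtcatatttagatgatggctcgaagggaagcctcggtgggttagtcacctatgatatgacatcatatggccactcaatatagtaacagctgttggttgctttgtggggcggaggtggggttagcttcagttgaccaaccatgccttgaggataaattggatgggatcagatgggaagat
CHAC1, chr15:40953221-40953470, plus strand: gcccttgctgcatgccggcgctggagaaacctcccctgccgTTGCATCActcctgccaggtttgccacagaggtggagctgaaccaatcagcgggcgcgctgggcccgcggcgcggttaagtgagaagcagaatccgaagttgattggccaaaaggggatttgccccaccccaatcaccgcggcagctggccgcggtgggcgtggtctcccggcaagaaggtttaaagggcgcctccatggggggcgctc
All 10 genes had at least 1 window in the table, each running from 250 bases before to 50 bases after a start. The response element was searched as TGATGNAA on both strands. It was found in the more upstream of the 2 ATF3 windows, with its first base 191 bases before that start. The other ATF3 window did not hold the element. In the CHAC1 window it was found on the opposite strand, 209 bases before the start. It was present in 3.62% of all 35116 windows. The cAMP response element TGACGTCA (1.85% of windows) and the C/EBP site TTGCGCAA (0.151% of windows) were not in any window of the 10 genes. None of the matches overlapped another. A match describes the letters in this window only.

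The level of a gene is given throughout as the log2 intensity of its probe minus the 75th percentile of its array, so that a level of 0 is the 75th percentile itself. Levels of different genes come from different probes and are not compared with each other. The targeted gene was looked at first. The BEX2 level was −3.36 and −3.91 in shControl cells, −2.70 and −3.77 in shNontarget cells, −5.21 and −5.54 in shBEX2-1 cells, and −4.92 and −4.60 in shBEX2-2 cells. All 4 knockdown arrays lay below all 4 control arrays (log2 fold change −1.63, SE 0.32, limma adjusted p = 0.0116). The probe was not well above background on either shBEX2-1 array, so that the size of the fall there is uncertain. BEX2 was estimated as 3.83-fold lower in shBEX2-1 cells in these normalized values (adjusted p = 0.0336). The 95% interval of this log2 fold change ran from −2.83 to −1.05, and the pooled fold change averages over those arrays. The probe was well above background on both shBEX2-2 arrays, where the log2 fold change was −1.32 and did not pass the test (adjusted p = 0.0813). The size and the call of the pooled difference depended on the processing. After normexp background correction it was −0.45 (adjusted p = 0.0801), with −0.39 in shBEX2-1 and −0.51 in shBEX2-2 cells, and with only the shNontarget arrays as control it was −1.83 (adjusted p = 0.0786).

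The share of spots well above background was 59.8% to 64.6% per array, with none saturated. All 8 lay on 1 slide, the control arrays in one row and the knockdown arrays in the other, so that slide row and group cannot be told apart. The 75th percentile of intensity was 667 to 838 on control arrays and 441 to 631 on knockdown arrays before scaling. The shNontarget arrays differed from each other more than any other pair, with a median absolute difference of 0.71 log2 units over all genes tested, against 0.11 to 0.15 in the other vectors, and 34.9% of genes differed between them by over 1 log2 unit. Whether both are labelled correctly was not tested. All 7 biliary epithelial markers looked up (KRT7, KRT19, KRT8, KRT18, EPCAM, SOX9 and CDH1) were well above background on all 8 arrays, as was 1 of 4 fibroblast markers (COL1A1) and 1 of 4 leukocyte markers (CD14). Of the 4 hepatocyte markers ALB and TTR were above background on no array, CYP3A4 on 1 and APOA1 on 6. COL1A2 and COL3A1 were above it on no array, PDGFRB on 1, CD3E on 3 and PTPRC on 7. All samples are of a single cell line, and the source of the signal of the other markers was not tested.

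Of the 10 genes, 7 were lower in BEX2-knockdown cells than in control cells (DDIT3, SESN2, TRIB3, CHAC1, DDIT4, CEBPB and ATF4), 1 was higher (ATF5), and the differences of ATF3 and VLDLR did not pass the test. A gene is called where the Benjamini-Hochberg adjusted p of limma over all genes is under 0.05. Over all genes tested, 6.26% were called lower and 6.68% higher in this comparison. Without 1 array the count of 8 was 5 (either shControl array, shBEX2-1 replicate 2 or shBEX2-2 replicate 2) or 4 (shBEX2-2 replicate 1), where 6.07% to 8.32% of all genes were called in either direction. As the 10 genes were proposed with results of this same comparison known, nothing is read from their share, and each value below is a description. The same 8 genes were those whose 4 knockdown arrays lay entirely below (7 genes) or entirely above (1 gene) the 4 control arrays. This was so of 10.7% of all genes below and of 11.5% above. For each of the 8, the exact two-sided permutation test of 4 against 4 arrays gave p = 0.0286, the smallest that its 70 relabellings allow. A complete separation of 4 from 4 arrays always gives this value, so it only restates that separation. The relabelling also took arrays singly, although they are pairs from the same vectors. The median log2 fold change of the 10 genes was −0.80, beside 0.03 over all genes.

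**Figure D1:**
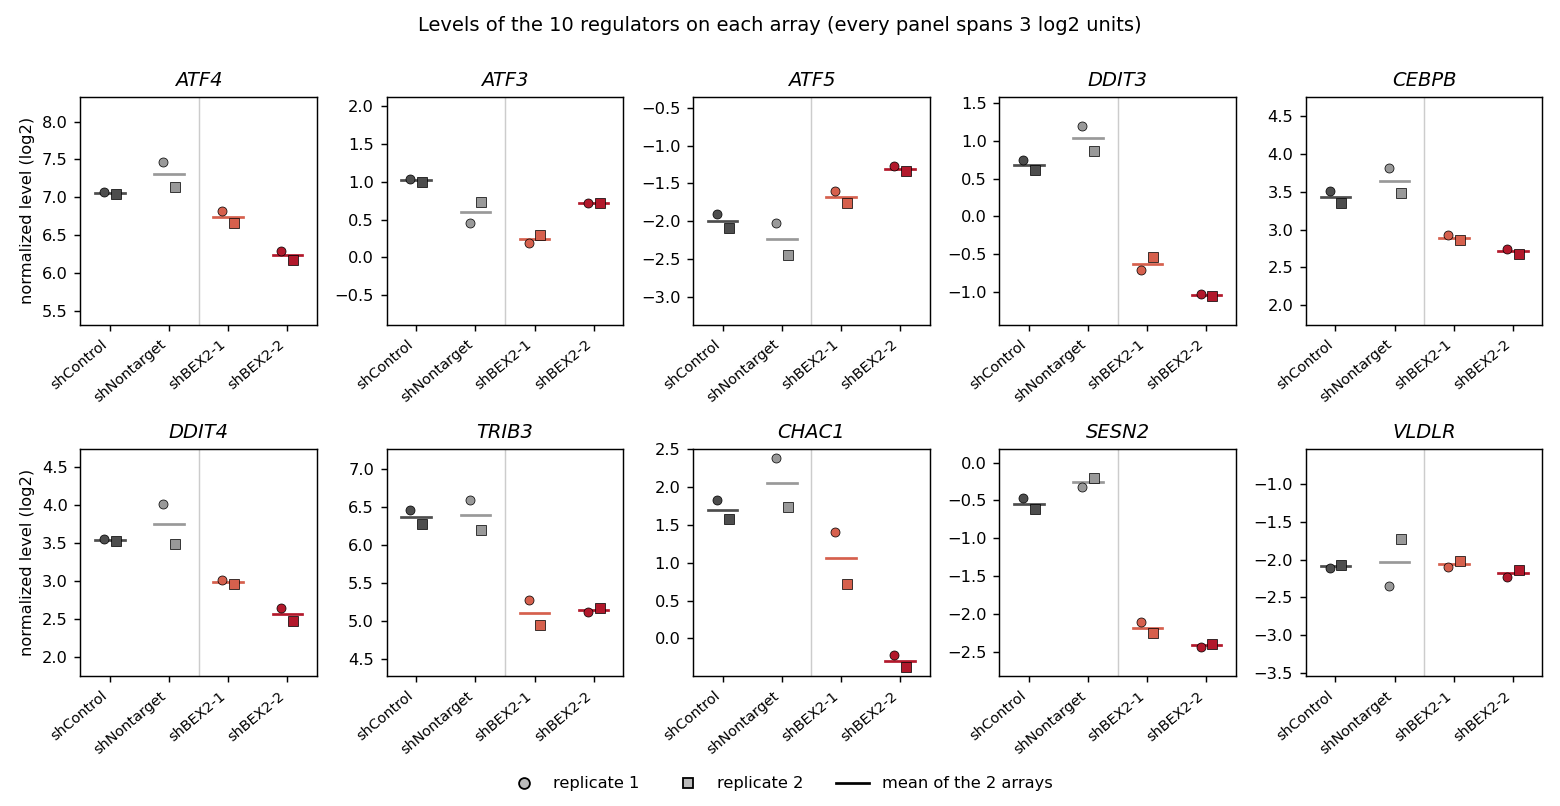
Normalized log2 level of each of the 10 genes on each array (vertical axis, 1 panel a gene, every panel spanning 3 log2 units) by vector (horizontal axis). Circles are replicate 1, squares replicate 2 and lines the mean of both, with the control vectors left of the grey line. In 7 panels all knockdown points sit below all control points, in the ATF5 panel they sit above, and in the ATF3 and VLDLR panels they overlap.

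The mRNA of ATF4, the factor at the head of this arm, was lower in the knockdown cells. These arrays do not measure its protein. The mRNA level was 7.07 and 7.04 in shControl cells, 7.47 and 7.14 in shNontarget cells, 6.82 and 6.66 in shBEX2-1 cells, and 6.29 and 6.18 in shBEX2-2 cells. The 4 vectors stood in the order shNontarget, shControl, shBEX2-1, shBEX2-2, and no pair of neighbours in this order overlapped. In log2 the fold change of ATF4 was −0.69 (SE 0.19, adjusted p = 0.0473, limma), which is 1.62-fold lower. This call lay close to the threshold. With the replicate number as a block its adjusted p was 0.0532, and without any 1 of the shControl or knockdown arrays it ran from 0.0502 to 0.15. The probe lies at chr22:39918577-39918636 of hg19, the build of the array design.

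DDIT3, which encodes CHOP, fell further than ATF4. Its level was 0.75 and 0.61 in shControl cells, 1.20 and 0.86 in shNontarget cells, against −0.71 and −0.54 in shBEX2-1 cells and −1.02 and −1.05 in shBEX2-2 cells. Knockdown and control arrays were separated by a gap wider than the spread within either group. Its log2 fold change was −1.68 (SE 0.17, adjusted p = 0.00112), or 3.21-fold lower. DDIT3 ranked 131st among the falls of all genes tested. The array design gives its probe no genome position.

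CEBPB, a C/EBP family factor and a dimer partner of ATF4 and CHOP, fell by a smaller amount. Its level was 3.50 and 3.35 in shControl cells, 3.81 and 3.48 in shNontarget cells, 2.93 and 2.86 in shBEX2-1 cells, and 2.75 and 2.68 in shBEX2-2 cells. The lowest control array was 0.43 log2 units above the highest knockdown array. CEBPB had a log2 fold change of −0.73 (SE 0.14, adjusted p = 0.00933). Its probe lies at chr20:48808989-48809048 of hg19.

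ATF5, a bZIP factor whose translation is controlled in the same way as that of ATF4, moved the other way. Its level was −1.91 and −2.09 in shControl cells, −2.03 and −2.45 in shNontarget cells, and it was −1.61 and −1.76 in shBEX2-1 cells and −1.27 and −1.33 in shBEX2-2 cells. Every knockdown array was above every control array, with shBEX2-2 highest. On the log2 scale ATF5 rose by 0.63 (SE 0.17, adjusted p = 0.0454), or 1.54-fold higher. This call was also near the threshold, and without any 1 of the shControl or knockdown arrays the adjusted p ran from 0.0546 to 0.143. After quantile normalization it was 0.0566. The probe lies at chr19:50436754-50436813 of hg19.

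ATF3, a bZIP factor induced by ATF4 that acts largely as a repressor, did not separate the groups. Its level was 1.04 and 1.00 in shControl cells, 0.46 and 0.74 in shNontarget cells, 0.19 and 0.29 in shBEX2-1 cells, and 0.72 and 0.72 in shBEX2-2 cells. The shBEX2-2 cells overlapped the shNontarget cells, while shControl was highest and shBEX2-1 lowest. The log2 fold change of ATF3 was −0.33 (SE 0.19, adjusted p = 0.292), with a 95% interval from −0.75 to 0.09. With only the shControl arrays as control it was −0.54 with an adjusted p of 0.0445. The probe used lies at chr1:212793856-212793915 of hg19, and ATF3 had 3 further probes, each well above background on all 8 arrays. Their fold changes were −0.40, 0.20 and −0.14, with adjusted p-values of 0.27, 0.599 and 0.757 over all probes, and on each of them the groups overlapped.

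Among the genes known to be induced by ATF4 and CHOP, SESN2 was lower on all knockdown arrays. Sestrin 2, its product, senses leucine and restrains mTORC1. Its level was −0.47 and −0.62 in shControl cells, −0.32 and −0.20 in shNontarget cells, and in the knockdown cells it was −2.11 and −2.25 (shBEX2-1) and −2.43 and −2.39 (shBEX2-2). The log2 fold change of SESN2 was −1.89 (SE 0.14, adjusted p = 0.000619), or 3.71-fold lower. It ranked 71st among the falls of all genes tested. The probe lies at chr1:28608194-28608253 of hg19.

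TRIB3, a pseudokinase that binds ATF4 and CHOP and damps their activity, was lower to nearly the same extent in both sublines. Its level was 6.46 and 6.28 in shControl cells, 6.60 and 6.19 in shNontarget cells, 5.27 and 4.94 in shBEX2-1 cells, and 5.11 and 5.16 in shBEX2-2 cells. Within each group the vectors overlapped, and between the groups they did not. This gave a log2 fold change of −1.26 (SE 0.15, adjusted p = 0.0016), or 2.39-fold lower. The probe lies at chr20:378107-378166 of hg19.

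CHAC1, which encodes an enzyme that breaks down glutathione, varied most among the knockdown arrays. Its level was 1.82 and 1.58 in shControl cells, 2.38 and 1.73 in shNontarget cells, 1.40 and 0.71 in shBEX2-1 cells, and −0.22 and −0.37 in shBEX2-2 cells. One shBEX2-1 array came within 0.18 log2 units of the lowest control array, and the shBEX2-2 arrays stood apart from all others. The log2 fold change of CHAC1 was −1.50 (SE 0.38, adjusted p = 0.0325), or 2.82-fold lower. Leaving out either shControl array, shBEX2-1 replicate 2 or either shBEX2-2 array raised the adjusted p above the threshold, to between 0.0572 and 0.101. The second CHAC1 probe, at chr15:41247814-41247873 of hg19 beside chr15:41248631-41248690 for the probe used, gave the same order of the vectors. Its level was −1.69 and −1.84 in shControl cells, −0.95 and −1.74 in shNontarget cells, −2.85 and −3.19 in shBEX2-1 cells, and −3.91 and −4.15 in shBEX2-2 cells. Its fold change was −1.97 (SE 0.32, adjusted p = 0.00542 over all probes), and on this probe shBEX2-1 was well apart from both control vectors.

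**Figure D2:**
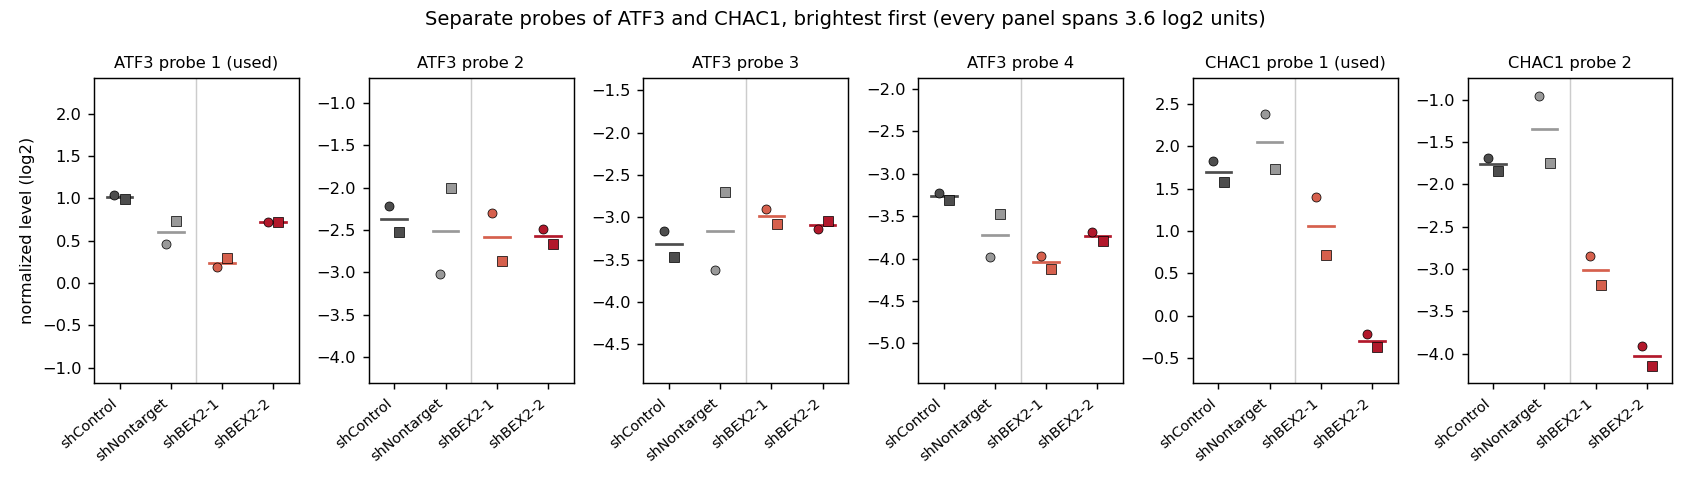
Normalized log2 level on each array (vertical axis, every panel spanning 3.6 log2 units) of the 4 ATF3 probes and the 2 CHAC1 probes, brightest first, by vector (horizontal axis); circles are replicate 1, squares replicate 2 and lines their mean. Both CHAC1 probes step down from control to shBEX2-1 to shBEX2-2, whereas the ATF3 probes differ in their pattern and overlap between the groups.

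DDIT4, which encodes REDD1, a brake on mTORC1, was lower in both sublines. Its level was 3.55 and 3.52 in shControl cells, 4.02 and 3.49 in shNontarget cells, 3.01 and 2.96 in shBEX2-1 cells, and 2.65 and 2.47 in shBEX2-2 cells. The first shNontarget array lay above the other 3 control arrays. Its log2 fold change was −0.87 (SE 0.18, adjusted p = 0.0135), or 1.83-fold lower, and without shBEX2-2 replicate 1 the adjusted p was 0.0538. The probe lies at chr10:74035363-74035422 of hg19.

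VLDLR, a lipoprotein receptor induced during endoplasmic reticulum stress, did not separate the groups. Its level was −2.12 and −2.07 in shControl cells, −2.35 and −1.72 in shNontarget cells, −2.09 and −2.03 in shBEX2-1 cells, and −2.23 and −2.14 in shBEX2-2 cells. The shNontarget arrays alone spanned all others. Its log2 fold change was −0.06 (SE 0.16, adjusted p = 0.856), with a 95% interval from −0.42 to 0.30. On all 8 arrays the second VLDLR probe failed to rise well above background. The probe used lies at chr9:2653897-2653956 of hg19.

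The next comparison asked whether both BEX2-knockdown sublines moved these genes. Each subline was set against the same 4 control arrays, so that the values share their controls. In shBEX2-1 cells 3 of the 10 genes were called lower (SESN2, DDIT3 and TRIB3) and 0 higher, where 3.62% of all genes were called lower and 3.38% higher. In shBEX2-2 cells 7 were called lower and 1 higher, the same genes as in the comparison of all arrays, where 4.81% of all genes were called lower and 4.86% higher. For SESN2 the fold change was −1.78 in shBEX2-1 cells (adjusted p = 0.00631) and −2.01 in shBEX2-2 cells (adjusted p = 0.00236). For DDIT3 it was −1.48 (adjusted p = 0.00724) and −1.89 (adjusted p = 0.00307). For TRIB3 it was −1.28 (adjusted p = 0.0177) and −1.24 (adjusted p = 0.0147). These falls were 2.36-fold or more in both sublines. The counts moved with the spread shared by all 4 vectors. In shBEX2-1 cells 9 genes were called without shNontarget replicate 1 and 9 without replicate 2, when 52.9% and 52.6% of all genes were called. Without either shControl array or either shBEX2-1 array 0 of the 10 and 0 of all genes were called. In shBEX2-2 cells 3 were called without either shControl array (2.3% and 2.07% of all genes), 4 without either shBEX2-1 array (4.28% and 4.31%) and 0 without either shBEX2-2 array (0%).

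The other genes called in shBEX2-2 cells had the same sign in shBEX2-1 cells. CHAC1 had a fold change of −0.82 in shBEX2-1 cells (adjusted p = 0.132) and −2.17 in shBEX2-2 cells (adjusted p = 0.00712). DDIT4 had −0.66 (adjusted p = 0.0852) and −1.09 (adjusted p = 0.0167). CEBPB had −0.64 (adjusted p = 0.0534) and −0.82 (adjusted p = 0.021). ATF4 had −0.44 (adjusted p = 0.223) and −0.94 (adjusted p = 0.0282), and ATF5 had 0.44 (adjusted p = 0.198) and 0.81 (adjusted p = 0.0345). ATF3 differed in size, at −0.57 in shBEX2-1 cells (adjusted p = 0.052) and −0.09 in shBEX2-2 cells (adjusted p = 0.749). VLDLR was near 0 in both, at 0.004 and −0.12.

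**Figure D3:**
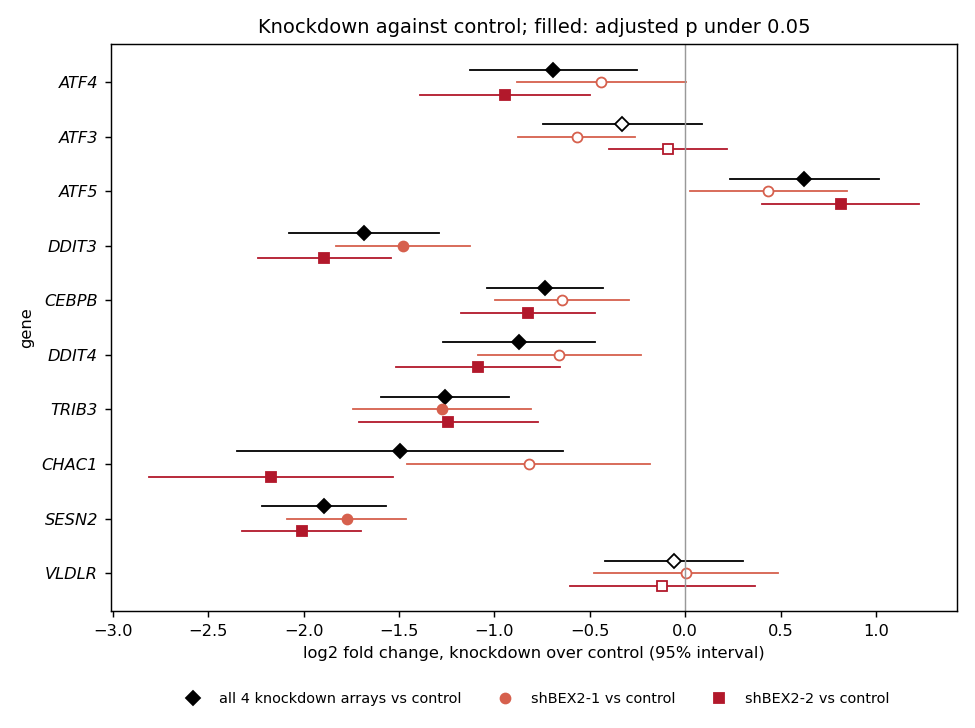
Log2 fold change against the 4 control arrays (horizontal axis, bars are 95% intervals) of the 10 genes (vertical axis) for all 4 knockdown arrays (diamonds), shBEX2-1 (circles) and shBEX2-2 (squares); filled symbols have an adjusted p under 0.05. SESN2, DDIT3 and TRIB3 are filled in all 3 comparisons, ATF5 is the one gene with a filled symbol to the right of 0, and CHAC1 has the widest distance between the sublines.

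Whether the sublines differed from each other was tested directly. Of all genes 0.00977% were called in this comparison, and of the 10 genes 0 were called, with 3 at an unadjusted p under 0.05 (CHAC1, ATF3 and DDIT3). CHAC1 was 1.35 log2 units higher in shBEX2-1 than in shBEX2-2 cells, with a 95% interval from 0.61 to 2.09 and an adjusted p of 0.246. ATF3 was lower by 0.48 (95% interval from −0.83 to −0.12 for shBEX2-1 minus shBEX2-2, adjusted p = 0.447), and ATF4 was 0.50 higher (95% interval from −0.01 to 1.02, adjusted p = 0.692). For TRIB3 the difference was −0.03, with an interval from −0.58 to 0.51. The spread in this fit is shared by all 4 vectors. Without either shNontarget array, when 14.4% (without replicate 1) and 14.7% (without replicate 2) of all genes were called, 5 of the 10 genes were called between the sublines, namely CHAC1, ATF4, DDIT3 and DDIT4 higher and ATF3 lower in shBEX2-1 cells, and the adjusted p of CHAC1 was 0.00595 without replicate 1 and 0.00563 without replicate 2.

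The control vectors were compared in the same way, as the background of these measurements. Of all genes 0% were called between shNontarget and shControl cells, and 1564 genes had an unadjusted p under 0.05. Among the 10 genes 0 were called and 1 had an unadjusted p under 0.05, namely ATF3. Its level was 0.42 log2 units lower in shNontarget cells (difference −0.42, 95% interval from −0.78 to −0.07, adjusted p = 0.574). DDIT3 was 0.35 higher (interval from −0.05 to 0.76) and CHAC1 was 0.35 higher (interval from −0.38 to 1.09) in shNontarget cells, the direction opposite to that in the knockdown cells. Without shNontarget replicate 2, 5 of the 10 genes were called between the control vectors, beside 46.3% of all genes, and without replicate 1 there were 3, beside 45.1% of all genes. The difference of SESN2 between the control vectors was 0.29, against a fall of 1.89 log2 units in the knockdown cells (log2 fold change −1.89).

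Other genes of the pathway were taken from 6 lists of textbook members, 92 of whose 99 genes were tested. Over all lists 37 genes were called lower and 10 higher in knockdown cells, where 6.26% of all genes were called lower and 6.68% higher. In shBEX2-1 cells these shares of all genes were 3.62% and 3.38%, and in shBEX2-2 cells 4.81% and 4.86%. Without any 1 of the shControl or knockdown arrays, 6.07% to 8.32% of all genes were called in either direction. When only the shNontarget arrays served as control, 340 of 20464 genes were called. The lists overlap in CEBPG and PPP1R15A, and no list was tested as a set. As the lists were compiled by hand with earlier results of these data known, nothing is read from their shares.

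Of 12 upstream kinases and eIF2 factors, 2 were called lower and 0 higher (16.7% in either direction, beside 12.9% of all genes), and the median log2 fold change was −0.03, beside 0.03 over all genes. PPP1R15A, which encodes GADD34, the phosphatase subunit that reverses eIF2 phosphorylation and is itself induced by ATF4 and CHOP, fell by 0.84 on the log2 scale (adjusted p = 0.00698). EIF2B4, a subunit of the exchange factor of eIF2, fell by 0.54 (adjusted p = 0.0308). Of the 4 eIF2 kinases none was called in this comparison, while EIF2AK2 was called higher in shBEX2-1 cells (log2 fold change 0.93, adjusted p = 0.0139) and had 0.10 in shBEX2-2 cells (adjusted p = 0.72). These were EIF2AK1 (HRI) with 0.51, EIF2AK2 (PKR) with 0.51, EIF2AK3 (PERK) with 0.13 and EIF2AK4 (GCN2) with −0.07, at adjusted p-values of 0.118, 0.193, 0.746 and 0.715, and were named as a set after their values were seen. Without any 1 of the shControl or knockdown arrays 1 gene of the list was called.

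Of 17 bZIP partners and relatives tested, 5 were called lower and 2 higher (41.2% in either direction, beside 12.9% of all genes). Their median was −0.13. JUNB, an AP-1 subunit, fell by 1.54 (adjusted p = 0.00365). CEBPG, a C/EBP partner of ATF4 and itself an ATF4 target, fell by 1.12 (adjusted p = 0.00448). FOSL2, another AP-1 subunit, rose by 1.51 (adjusted p = 0.00294). The count of 7 called was 3 or 4 without any 1 of the shControl or knockdown arrays.

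The amino acid supply targets of ATF4 were mostly lower, with 15 of 20 called lower and 0 called higher. This is 75%, beside 12.9% of all genes called in either direction, and the median was −1.03. PHGDH, the first enzyme of serine synthesis, fell by 2.00 (SE 0.26, adjusted p = 0.00225), with −1.60 in shBEX2-1 cells and −2.40 in shBEX2-2 cells. ASNS, which makes asparagine, fell by 1.85 (adjusted p = 0.0119). SLC6A9, a glycine transporter, fell by 1.83 (adjusted p = 0.00283), and its second probe gave −2.40. Fewer passed with only the shNontarget arrays as control, when 6 of the 20 and 340 of all 20464 genes were called.

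The tRNA synthetase targets, with the tRNA exporter XPOT among them, had a fold change below 0 for all 13 genes, and 10 were called lower. Called in either direction were 76.9% of the 13, beside 12.9% of all genes, and the median of the 13 was −1.08. IARS (isoleucine) fell by 1.27 (adjusted p = 0.00104), AARS (alanine) by 1.24 (adjusted p = 0.00148) and CARS (cysteine) by 1.18 (adjusted p = 0.00119). The further IARS probes gave −0.48 and −0.91, the first of them with an adjusted p of 0.0791 over all probes. In shBEX2-1 cells 8 of the 13 were called lower and in shBEX2-2 cells 9, beside 3.62% and 4.81% of all genes. With the replicate block these counts were 5 and 8, beside 1013 and 1594 of all genes in either direction.

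Of 18 stress and death targets of ATF4 and CHOP, 7 were called lower and 1 higher. Called in either direction were 44.4%, beside 12.9% of all genes, and the median was −0.53. NUPR1, a stress-induced nuclear protein, fell by 2.67 (SE 0.46, adjusted p = 0.00687), with −1.86 in shBEX2-1 cells and −3.47 in shBEX2-2 cells. GDF15, a secreted stress cytokine, fell by 2.22 (adjusted p = 0.00119). VEGFA, the angiogenic factor, fell by 1.56 (adjusted p = 0.0261), and its second probe gave −1.99. It had −1.15 in shBEX2-1 cells (adjusted p = 0.177) and −1.97 in shBEX2-2 cells (adjusted p = 0.037). Its level was 3.42 on shNontarget replicate 2, against 2.10, 2.07 and 1.88 on the other control arrays. The gene called higher was ERO1L, an oxidase of the endoplasmic reticulum known as a CHOP target, with 0.71 (adjusted p = 0.0377); it is named here because it stood alone. Without either shControl array, shBEX2-1 replicate 2 or either shBEX2-2 array, 4 or 5 of the 18 were called.

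Genes of the other arms of the endoplasmic reticulum stress response were higher where they were called. Of 14 genes, 7 were called higher and 0 lower (50% in either direction, beside 12.9% of all genes). The fold change was below 0 for 4 of the 14, and the median was 0.39. SDF2L1, a chaperone cofactor, rose by 1.26 (adjusted p = 0.0443), CALR, the chaperone calreticulin, by 0.90 (adjusted p = 0.0162), and MANF, a secreted stress factor, by 0.88 (adjusted p = 0.0271). HSPA5, the chaperone BiP, had −0.03 (adjusted p = 0.928) and was chosen for naming after its value was seen. The SDF2L1 level was 5.15 and 3.22 on the shNontarget arrays. SDF2L1, CALR and MANF were not called in either subline. Within the sublines 1 of the 14 was called higher in shBEX2-1 cells (CRELD2), which was lost with the replicate block. The genes called higher in shBEX2-2 cells were 3 (DNAJC3, PDIA4 and CRELD2). Without single arrays the count ran from 2 to 8, being 2 without shBEX2-1 replicate 1 or either shBEX2-2 array and 3 without shBEX2-1 replicate 2 or either shControl array, and it was 0 with only the shNontarget arrays as control.

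**Figure D4:**
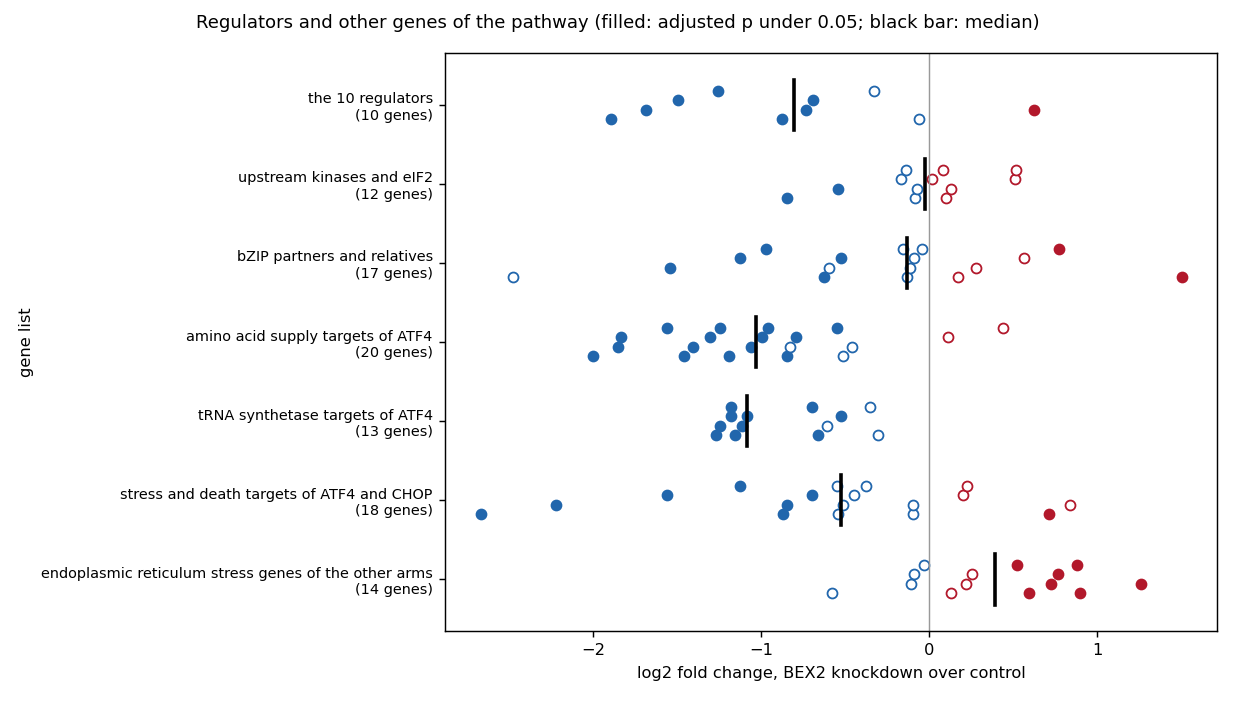
Log2 fold change of BEX2 knockdown over control (horizontal axis) for the 10 genes and the 6 lists of other pathway genes (vertical axis); 1 point is 1 gene, filled points have an adjusted p under 0.05, blue is lower, red is higher and black bars are medians. The amino acid supply and tRNA synthetase lists have medians of −1.03 and −1.08, the endoplasmic reticulum list has 0.39, and the upstream list lies near 0.

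Across the 8 arrays the 7 genes that fell moved closely together. The Pearson correlation of ATF4 was 0.99 with CHAC1, 0.98 with DDIT4, 0.95 with CEBPB, 0.94 with DDIT3, 0.89 with SESN2 and 0.86 with TRIB3. That of ATF4 with ATF5 was −0.84, and with ATF3 and VLDLR it was 0.06 and 0.08. The 8 points of each correlation are arrays of 2 groups on 1 slide, so that these values largely restate the difference between the groups, and they are given as a description. Of 20438 other genes, those whose levels followed the mean standardized profile of the 10 genes most closely over the 8 arrays were PDGFA (r = 0.998), a growth factor chain, TK2 (r = 0.997), a mitochondrial thymidine kinase, VPS28 (r = 0.996), a subunit of the ESCRT-I sorting complex, CARS (r = 0.996) and SLC7A5 (r = 0.995), a leucine transporter. PDGFA had levels of −0.53 and −0.70 in shControl cells, −0.44 and −0.52 in shNontarget cells, −1.69 and −1.81 in shBEX2-1 cells, and −2.03 and −2.20 in shBEX2-2 cells.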

How the data were processed

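Gene expression of HuCCT1 cells was profiled on 8 Agilent arrays, 2 for each of 4 vectors. Per the labels and file headers, the authors labelled total RNA with Cy3 (Low Input Quick Amp) and extracted features with Agilent Feature Extraction 10.7.3.1. The deposited intensity is background-subtracted and detrended within each array, with dim values replaced by a surrogate (19.9% to 25.9% of spots), and is not scaled between arrays. Such surrogates can compress the fold changes of dim probes. The number of arrays limits the precision.

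Control spots and non-uniformity outliers (3 to 15 an array) were left out. Processed intensities were taken to log2, each array's 75th percentile was subtracted, and probes well above background on at least 4 arrays were kept, the brightest for each gene. limma 3.58.1 (R 4.3.3, statmod 1.5.0) with an intensity trend compared 4 knockdown with 4 control arrays, and a model of 4 vectors gave the comparisons between vectors, with Benjamini-Hochberg adjustment over 20464 genes and 95% intervals. Both limma fits were tested on simulated arrays with the same spread in every vector, unlike these arrays, where the shNontarget pair differed most. The other steps were not tested in this way. Summaries and figures were made with Python 3.11.15 and pandas 2.3.3. Alternatives were other normalizations, filters, probes and control sets, leaving out each array, and the methods' t-test. The rank product method of the study was not run here.

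The 10 genes, the pathway lists, markers and motifs were chosen with earlier results of these data known. Genes were named by a rule: the 10 genes and BEX2, the 3 called genes of each list with the largest change, and the 5 genes most like the mean profile. Symbols are those of the array design.

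Replicates 1 and 2 of every vector carry a day each in the names of the deposited arrays, and were treated as paired for the replicate block. The correlations of the replicate differences between vectors over all genes were −0.06 to 0.26. With CD274, a second knockdown of the study, no arrays were analysed here. The values of 1 leukocyte marker are not reported here.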

Additional observations from a re-analysis of the deposited data

Results flagged for a closer look

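The DDIT4 level of shNontarget replicate 1, 4.02, stood apart from the other 3 control arrays, which lay between 3.49 and 3.55. Its gap to them was 0.87 of the range of the control arrays, above the critical value of Dixon's test for 4 values. Chance alone gives about 1 such case in 20 groups, and 20 groups (10 genes in control and knockdown arrays) were looked at. The shNontarget arrays are also the pair with the widest replicate difference over all genes.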

How the results depend on the processing

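DDIT3, TRIB3 and SESN2 kept their direction and their call in all alternatives of the comparison of knockdown with control, and the other 5 called genes kept their direction. Of the 10 genes, 8 were called in that comparison, beside 2648 of 20464 genes. The count was 5 without a filter on dim probes, beside 2104 of 34809 genes. It was 5 with the methods' t-test after Benjamini-Hochberg adjustment, beside 2170 genes, and 3 with only the shNontarget arrays as control, beside 340 genes. Leaving out 1 array gave 4 to 8, beside 6.07% to 23.1% of all genes. With the replicate block the count was 7, beside 2456 genes, ATF4 being lost. The replicate block changed no other call of the 10 genes in any of the 5 comparisons. For shBEX2-1, 3 were called, beside 1432 of all genes. The count was 5 after quantile normalization (beside 1586 genes) and 5 after normexp background correction (beside 2404). It was also 5 with probes well above background on all 8 arrays (beside 1391 of 17892 genes). For shBEX2-2, 8 were called, beside 1978 of all genes, and 5 with only the shControl arrays as control, beside 1516. Leaving out 1 array moved the count of either subline as described above. Between the control vectors and between the sublines it was 0, and 0 to 5 with 1 array left out. With 1 array left out, the highest counts of the 4 vector comparisons came without a shNontarget array, and the counts of 0 in the sublines without an array of the subline tested or, for shBEX2-1, a shControl array; a vector left with 1 array was assumed to vary like the others. VLDLR, which was not called, changed sign to 0.05327 after normexp background correction, and with 1 array left out it ran from −0.1526 (without shNontarget replicate 1) to 0.0557 (without shNontarget replicate 2).

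The lists were recomputed under the same alternatives, a choice made after seeing the data. With 1 array left out, the counts called were 1 to 3 for the upstream factors, 3 to 8 for the bZIP relatives, 10 to 18 for amino acid supply, 9 to 12 for tRNA synthetases, 4 to 10 for stress and death targets and 2 to 8 for the other endoplasmic reticulum arms. Over all genes 6.07% to 23.1% were called with 1 array left out. With only the shNontarget arrays as control the list counts were 1, 2, 6, 5, 2 and 0, in that order, beside 340 of 20464 genes. The upstream count was 4 by the unadjusted t-test, beside 5419 genes. After Benjamini-Hochberg adjustment of the t-test the stress and death count was 5 and the endoplasmic reticulum count 4, beside 2170 genes. The latter was also 4 without a filter (beside 2104 genes) and 4 in the model of 4 vectors (beside 2785). The replicate block gave 6 for the endoplasmic reticulum list (CRELD2 lost) and 9 for the stress and death list (BCL2L11 gained), and left the counts of the other lists in the comparison of knockdown with control as they were. In shBEX2-1 cells the replicate block took the tRNA synthetase count from 8 to 5 and the endoplasmic reticulum count from 1 to 0. The amino acid supply count went from 11 to 10. Of the stress and death targets, 4 were called lower and 1 higher in shBEX2-1 cells, and 3 were called with the block, NUPR1 and DDIT4L being lost. Over all genes the count went from 1432 to 1013. The causes were not tested.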
